A study of Mus musculus with 12 samples.

Results

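Corepressor complexes carry no DNA-binding activity of their own in most cases. They are brought to genes by transcription factors and silence them by removing acetyl groups from histones. NCOR1 is the scaffold of the NCoR complex, TBL1XR1 is its exchange subunit and HDAC3 its deacetylase. SIN3A and SIN3B are alternative scaffolds that hold the deacetylases HDAC1 and HDAC2. REST is a zinc-finger repressor that keeps neuronal genes silent in non-neuronal cells and falls as neurons mature, and RCOR1 (CoREST) is a scaffold that links REST to HDAC1 and HDAC2. MYT1L, the factor that is mutated in this study, is itself a zinc-finger protein of neurons that recruits SIN3 and histone deacetylases.

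The genes described here were the 9 rows of the expression matrices with the symbols Ncor1, Tbl1xr1, Hdac3, Sin3a, Sin3b, Hdac1, Hdac2, Rest and Rcor1, of 55336 genes in all, and all 9 had counts in the nuclei kept. They were measured by single-nucleus RNA sequencing of cortex from mice at postnatal day 21 on the C57BL/6 background. WT mice (6 animals) were compared with Het mice (6 animals) that carry 1 copy of the frameshift allele Myt1l S710fsX in every cell. The paper describes its samples as generally littermates, and the labels give no litter. Each genotype held 3 males and 3 females, and the paper drew the animals of this age from 4 litters. Mice of both genotypes had received AAV9 carrying hyPB and H2b-tdT-SRT into the ventricles on postnatal day 0 to 1, so no group was free of the virus.

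The limits of the study on UMIs, genes and mitochondrial reads left 34861 of 78743 barcodes, and removal of those with the highest doublet scores left 33125 nuclei, with 1552 to 4412 nuclei and 5067542 to 14014404 UMIs per animal. No barcode was shared between animals. The limits also held gene number relative to UMI number, each taken as a log, to at least 0.9. The alternative setting named below as without upper limits lifted this floor as well. Both changes were made together, so their effects were not told apart. Cell classes were set by marker UMIs in each nucleus and are written with the suffix "-like". They were excitatory-like (16087 nuclei), inhibitory-like (5330), oligodendrocyte-like (1432), oligodendrocyte precursor or OPC-like (266), astrocyte-like (156) and microglia-like (61) nuclei. In no class did markers of another class outnumber its own among the top 10 genes. The same markers had set the classes, so this outcome was largely fixed in advance. The neuronal genes Rbfox3, Syt1 and Snap25, which were not among the markers, together reached 1.9% of their excitatory-like level in oligodendrocyte-like nuclei, 6.2% in astrocyte-like, 7.0% in OPC-like and 21.9% in microglia-like nuclei. The cutoffs of the classes were chosen partly on these genes, so the percentages are a description and not an independent check. A further 9782 nuclei (29.53%) met the marker rules of no class, by too few marker UMIs or by markers of several classes, and striatal projection-like nuclei (430) were present although the tissue was labelled cortex. The p-values of Het against WT below measure the spread between animals, which are separate mice. Those between classes have the animal as a block and measure how the difference between classes varies over animals.

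Depth differed widely among the 9 genes. Ncor1 had 37979.6 UMIs in the kept nuclei and was seen in 64.7% of them, Tbl1xr1 had 12147.1 UMIs and Rcor1 8335.1. Between 1957.5 and 4646.0 UMIs were counted for each of Hdac1, Sin3b, Sin3a, Hdac3 and Hdac2. Rest had 317.1 UMIs, in 1.0% of nuclei, so its values carry the largest counting error. Fractional UMIs arise where a read fits several genes, and fractional parts made up 5.95% of the UMIs of Hdac1 and 3.81% of those of Rest. Levels are given as CPM, the count scaled to the total UMIs of the class, summed over the nuclei of a class in each animal. They are compared between classes and not between genes, since they are not corrected for transcript length.

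The promoters of 3 members are shown because they differ in a short motif and in CG content, and because the values of Tbl1xr1 by class and of Rcor1 by genotype are given in full below. Each run is the 250 bases before a RefSeq gene start, in build GRCm38.p6, written 5′ to 3′ on the strand of the gene, with AAGTT or its reverse complement AACTT, the core sequence bound by the MYT1 family, in capitals.
Sin3b (chr8:72723020-72723269, plus strand): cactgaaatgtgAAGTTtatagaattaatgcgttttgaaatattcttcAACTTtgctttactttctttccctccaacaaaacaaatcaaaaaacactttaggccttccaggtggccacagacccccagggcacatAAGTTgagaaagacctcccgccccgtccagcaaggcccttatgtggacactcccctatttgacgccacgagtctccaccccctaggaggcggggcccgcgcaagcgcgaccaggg
Tbl1xr1 (chr3:22076402-22076651, plus strand): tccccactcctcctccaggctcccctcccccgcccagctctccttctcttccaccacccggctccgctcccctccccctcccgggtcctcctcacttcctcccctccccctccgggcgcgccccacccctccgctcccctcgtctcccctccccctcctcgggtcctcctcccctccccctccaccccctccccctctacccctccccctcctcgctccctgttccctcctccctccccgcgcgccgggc
Rcor1 (chr12:111039117-111039366, plus strand): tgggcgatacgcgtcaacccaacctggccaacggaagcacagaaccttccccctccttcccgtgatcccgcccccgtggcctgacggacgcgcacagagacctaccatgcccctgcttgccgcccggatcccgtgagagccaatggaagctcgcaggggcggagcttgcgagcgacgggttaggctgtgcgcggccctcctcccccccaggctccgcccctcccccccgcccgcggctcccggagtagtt
The Sin3b window held 3 matches and 10 CG pairs. No match was found in the windows of Tbl1xr1, with 15 CG pairs, or Rcor1, with 25 CG pairs. A match on either strand was present in 35.3% of 32851 promoter windows of the same length, whose median number of CG pairs was 6.0, and in 2 of the 8 windows found for 6 of the members. A match is a description of these letters and not a bound site.

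In the NCoR complex, Tbl1xr1 stood out by cell class. Tbl1xr1 lies at chr3:22076652-22216594 on the plus strand, and the antisense gene Gm5842 overlaps it. Its level in oligodendrocyte-like nuclei was 302.3 ± 51.0 CPM (SD, n = 12 animals), with 203.7 CPM in the lowest animal, 300.5 as the median and 379.3 in the highest. In excitatory-like nuclei it was 100.4 ± 7.63 CPM, from 89.15 through a median of 99.28 to 115.3. The lowest oligodendrocyte-like value was above the highest excitatory-like value. How many of all genes share this lack of overlap between the classes was not counted. In edgeR's quasi-likelihood test with the animal as a block, Tbl1xr1 was 1.34 ± 0.08 (log2 fold change ± SE) higher in oligodendrocyte-like than in excitatory-like nuclei (adjusted p = 3.24e-31). Here and below a gene is called when its Benjamini-Hochberg adjusted p over all genes tested is under 0.05 and its log2 fold change exceeds 0.2 in size. Of all 8581 genes tested, 77.0% were called between these classes, so a call alone sets no gene apart, and the size of the change is what is given.

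Tbl1xr1 was also higher in astrocyte-like nuclei, at 268.5 ± 132.7 CPM (n = 7), with a log2 fold change of 0.60 ± 0.19 (edgeR adjusted p = 0.00607), where 49.8% of genes were called. It was 1.35 with library totals, and 0.13 and not called without a filter on low counts. The astrocyte-like samples were 2 WT mice, at 358.3 and 414.1 CPM, and 5 Het mice, from 82.51 to 354.8 CPM. These genotypes did not overlap, as for 11.4% of 5300 genes with at least 10 UMIs there, and no test was made, since the class had fewer than the 3 animals per genotype required here. In OPC-like nuclei it was 185.8 ± 57.66 CPM (n = 10). The log2 fold change there was 0.42 ± 0.16 (edgeR adjusted p = 0.0181) against a background of 54.8% of genes called, and it fell to −0.02 without a filter on low counts. Inhibitory-like nuclei held 94.3 ± 11.72 CPM (n = 12), with a log2 fold change of −0.18 ± 0.07 (edgeR adjusted p = 0.0163), under the size needed for a call. The pooled microglia-like nuclei held 298.4 CPM, with an exact Poisson 95% interval of 221.5 to 393.4 that covers counting error only.

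The scaling that edgeR chose moved the median of all genes between classes. Relative to excitatory-like nuclei that median was −0.033 in inhibitory-like, −0.149 in oligodendrocyte-like, −0.441 in OPC-like and −0.497 in astrocyte-like nuclei on the log2 scale, and member values are to be read against it. With library totals in place of TMM factors the medians were 0.06, 0.09, 0.04 and 0.24. Under that change the sign of Ncor1, Sin3b and Hdac2 in OPC-like nuclei, of Sin3b in inhibitory-like nuclei, of Sin3a and Hdac3 in astrocyte-like nuclei and of Rcor1 in astrocyte-like and oligodendrocyte-like nuclei turned, and none of those 8 values had been called.

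Ncor1, the scaffold (chr11:62316426-62458541, minus strand; the opposite-strand genes Ttc19, Gm12276 and Pigl overlap it), varied least. Its class means ran over a 1.79-fold range across 12 classes that share no nuclei, against 4.12-fold for Tbl1xr1. Mean levels were 324.6 ± 13.91 CPM in excitatory-like, 360.2 ± 35.54 in inhibitory-like and 434.9 ± 45.77 in oligodendrocyte-like nuclei (n = 12 each). The log2 fold change in oligodendrocyte-like nuclei was 0.17 ± 0.07 (edgeR adjusted p = 0.0205), just under the size needed for a call. It was 0.42 with library totals and was called in 7 of 8 alternative settings and in 11 of 12 fits that left out an animal.

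Hdac3, the deacetylase of the complex, was higher in inhibitory-like nuclei, at 41.62 ± 4.74 CPM, than in excitatory-like nuclei, at 29.85 ± 3.73 CPM (n = 12 each). The log2 fold change was 0.39 ± 0.09 (edgeR adjusted p = 5.21e-05), and 54.0% of genes were called between these classes. Among inhibitory subclasses the highest mean was in Pvalb-like nuclei, at 61.37 ± 18.49 CPM, although Hdac3 was too low to be tested among those subclasses. In oligodendrocyte-like nuclei it was lower by the main scaling, at 21.59 ± 11.78 CPM with a log2 fold change of −0.55 ± 0.16 (edgeR adjusted p = 0.00164), and this call was lost with library totals, where it was −0.31.

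**Figure D1:**
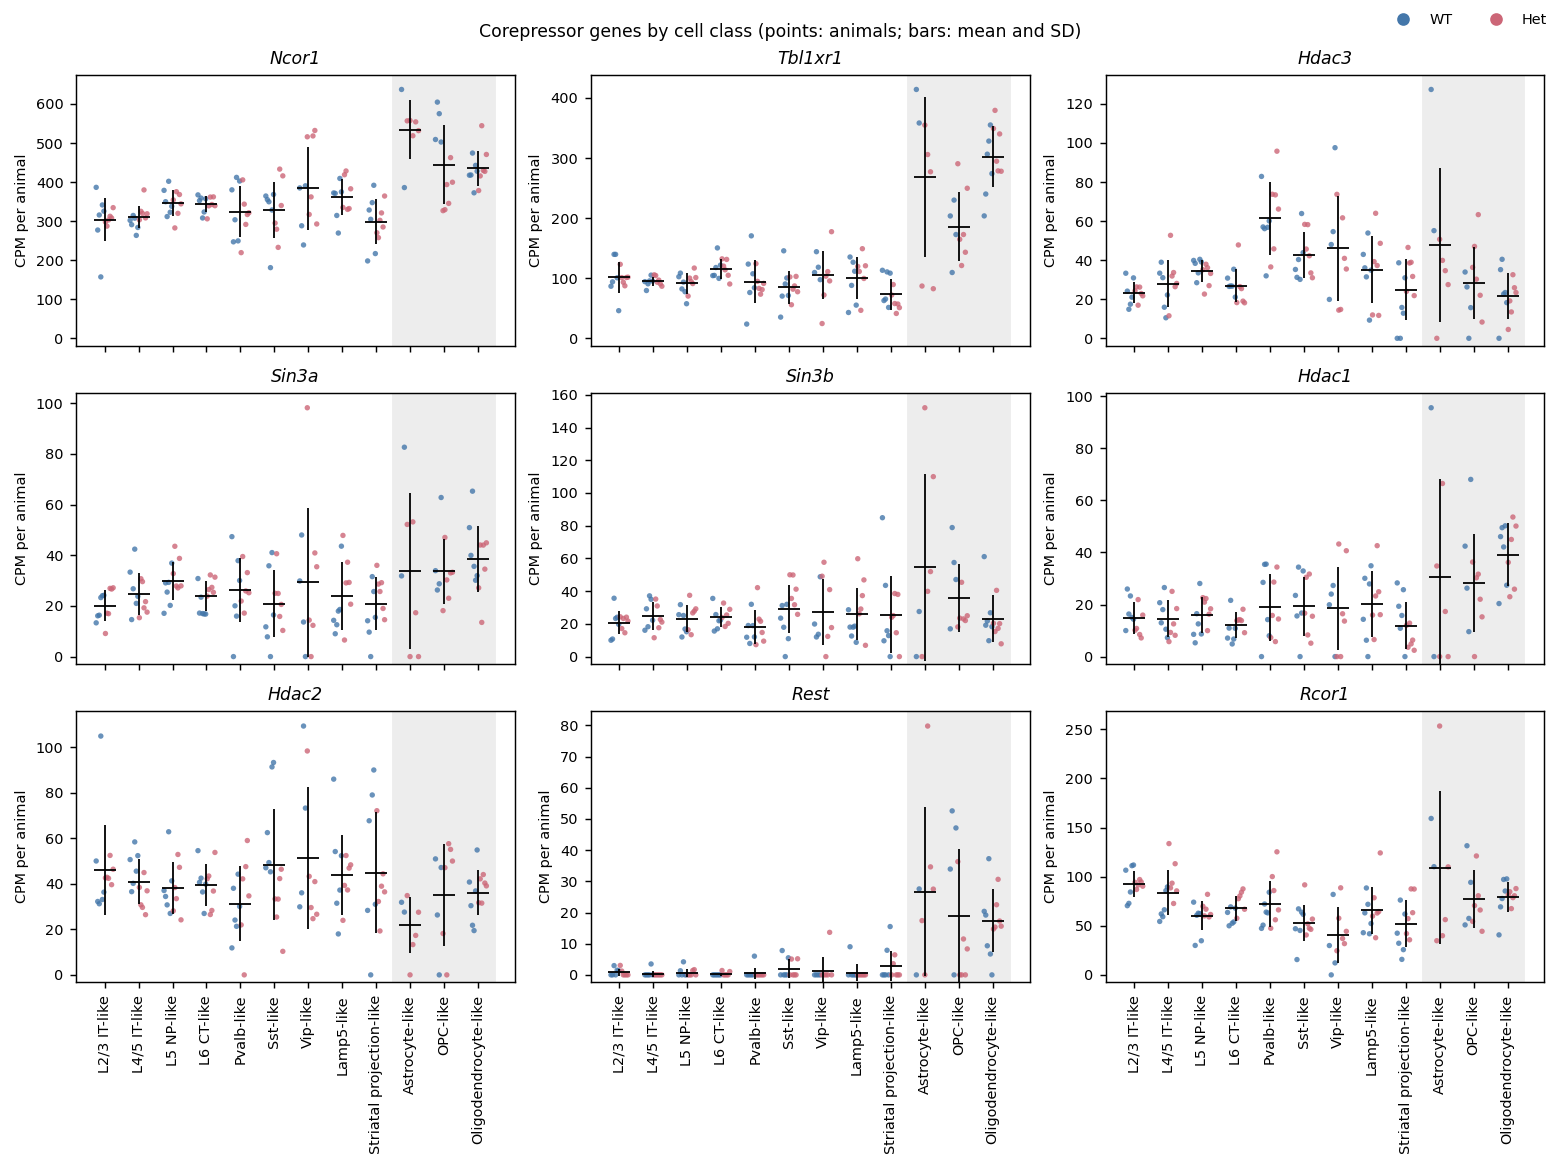
Levels of the 9 corepressor genes (vertical axes, CPM) in each animal by cell class (horizontal axis), blue for WT and red for Het, with black marks for the mean and SD over animals (SD bars end at the lower edge of a panel) and glial classes shaded. The means of Ncor1, Tbl1xr1, Sin3a, Hdac1 and Rest are higher in the 3 glial classes than in each of the 9 neuronal subclasses plotted, on this scale of library totals (by TMM, Ncor1 in OPC-like and Sin3a in astrocyte-like nuclei turn below excitatory-like nuclei), with Tbl1xr1 at 302.3 CPM in oligodendrocyte-like nuclei.

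In the SIN3 complex, the deacetylases Hdac1 and Hdac2 ran in opposite directions between neurons and oligodendrocyte-like nuclei. Hdac1 (chr4:129516104-129542713, minus strand) was at 13.25 ± 2.62 CPM in excitatory-like nuclei, from 10.18 through a median of 12.7 to 18.89. In oligodendrocyte-like nuclei it was at 39.13 ± 12.01 CPM, from 20.37 through 43.55 to 53.6, so the 12 animals did not overlap between the classes. The share of all genes without overlap between these classes was not counted. Its log2 fold change was 1.38 ± 0.15 (edgeR adjusted p = 5.11e-14). Hdac1 was also higher in inhibitory-like nuclei, at 21.33 ± 2.40 CPM, by 0.56 ± 0.11 (edgeR adjusted p = 5.01e-06). In astrocyte-like and OPC-like nuclei the log2 fold changes of 0.71 and 0.52 were not called. They were 1.45 and 1.00 with library totals, and were called in 4 and 3 of 8 alternative settings. The pooled DG-like nuclei (36), an excitatory subclass too small to be tested, held 69.24 CPM of Hdac1 from 10.2 UMIs (exact Poisson 95% interval 32.39 to 124.2).

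Hdac2 (chr10:36974544-37001889, plus strand) was at 40.69 ± 5.00 CPM in excitatory-like, 48.21 ± 10.56 in inhibitory-like and 36.05 ± 9.79 in oligodendrocyte-like nuclei (n = 12 each). Its log2 fold change in oligodendrocyte-like nuclei was −0.42 ± 0.14 (edgeR adjusted p = 0.00547). That value was −0.17 with library totals, and the call was present in 6 of 8 alternative settings and in 9 of 12 fits that each left out 1 animal. In astrocyte-like nuclei Hdac2 was called lower from 7 UMIs in 7 animals, with a log2 fold change of −1.53 ± 0.47 (edgeR adjusted p = 0.00463). It was −0.79 with library totals, and the call was present in 4 of 8 alternative settings.

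The share of Hdac1 in the sum of Hdac1 and Hdac2 UMIs does not depend on the scaling between classes. It was chosen after the levels had been seen in the same animals, so it is given as a description with no test. The share was 24.61% ± 4.41 in excitatory-like nuclei, with animals from 19.6% to 32.83%. In inhibitory-like nuclei it was 31.2% ± 4.55 and higher than in excitatory-like nuclei of the same animal in 11 of 12 animals, by 6.59 ± 4.93 percentage points. In oligodendrocyte-like nuclei it was 51.68% ± 13.11, from 33.33% to 69.45%, and higher in 12 of 12 animals, by 27.07 ± 12.31 points. OPC-like nuclei had 50.87% ± 32.06, higher in 8 of 10 animals, and astrocyte-like nuclei 43.06% ± 35.91, higher in 4 of 6 animals. The last pair rests on 43.7 and 18.0 UMIs.

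The scaffolds Sin3a and Sin3b had log2 fold changes of opposite sign in oligodendrocyte-like nuclei. Sin3a (chr9:57072040-57128366, plus strand) was at 24.13 ± 3.22 CPM in excitatory-like and 38.51 ± 13.04 CPM in oligodendrocyte-like nuclei (n = 12 each). That is a log2 fold change of 0.45 ± 0.14 (edgeR adjusted p = 0.00302), and it was 0.16 and not called without a filter on low counts. Sin3b (chr8:72723285-72758201, plus strand) was at 25.2 ± 2.19 and 23.18 ± 14.54 CPM in the same classes. Its log2 fold change was −0.62 ± 0.18 (edgeR adjusted p = 0.00108), which was lost with library totals, at −0.37. In the pooled microglia-like nuclei Sin3a stood at 95.49 CPM (exact Poisson 95% interval 54.58 to 155.1).

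Rest, the repressor of neuronal genes, showed the widest range of the 9 genes. Its position is chr5:77265491-77286432 on the plus strand, and the microRNA gene Mir5098 lies within it. In excitatory-like nuclei it was at 1.08 ± 0.65 CPM (n = 12 animals, 54.5 UMIs in all), from 0.224 through a median of 0.934 to 2.61. In oligodendrocyte-like nuclei it was at 17.4 ± 10.02 CPM (n = 12, 69.0 UMIs), from 0 through 16.45 to 37.25. Most oligodendrocyte-like samples were therefore far above every excitatory-like sample, but the animal with no Rest UMI overlapped them. Rest differed by 3.82 ± 0.32 on the log2 scale (edgeR adjusted p = 3.37e-20). At its neuronal levels Rest passed the filter on low counts only through the glial samples in which it was high. The p-values of Rest between classes are therefore a description. The glial calls were also present without that filter.

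Astrocyte-like nuclei held 26.7 ± 27.06 CPM of Rest (n = 7) and OPC-like nuclei 18.98 ± 21.22 CPM (n = 10), each from 11 UMIs. The log2 fold changes against excitatory-like nuclei were 4.14 ± 0.71 (edgeR adjusted p = 4.39e-07) and 3.58 ± 0.68 (edgeR adjusted p = 3.60e-06). Inhibitory-like nuclei, at 1.29 ± 1.17 CPM from 23.2 UMIs, were not called, with 0.26 ± 0.38 (edgeR adjusted p = 0.591). The 3 UMIs of the pooled microglia-like nuclei gave 17.91 CPM, with an exact Poisson 95% interval of 3.69 to 52.33.

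Glial markers were not absent from the neuronal classes. In excitatory-like nuclei the summed astrocyte, OPC, microglia and oligodendrocyte marker lists stood at 2.17%, 2.50%, 0.518% and 0.483% of their level in their own classes, and in inhibitory-like nuclei at 3.58%, 3.55%, 0.640% and 0.332%. Their part in the low neuronal Rest level was not tested. The nuclei in no class held 142.3 UMIs of Rest, 44.89% of its total, against 27.27% of all UMIs, at 4.78 CPM.

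Rcor1, the CoREST scaffold (chr12:111039351-111115901, plus strand; Gm46379 overlaps it on the other strand and Gm48632 on the same strand), did not follow Rest from excitatory-like to oligodendrocyte-like nuclei. It was at 78.22 ± 8.65 CPM in excitatory-like and 79.07 ± 15.18 CPM in oligodendrocyte-like nuclei. In inhibitory-like nuclei it was lower, at 60.06 ± 8.38 CPM (n = 12 each), with a log2 fold change of −0.46 ± 0.07 (edgeR adjusted p = 2.85e-09). In OPC-like nuclei the mean was 77.13 CPM (n = 10), near the excitatory-like mean. The call there, −0.64 ± 0.20 (edgeR adjusted p = 0.00537), was −0.16 with library totals and was present in 3 of 8 alternative settings and in 1 of 12 fits that left out an animal. In astrocyte-like nuclei, where the mean of Rest was also highest of the 12 separate classes, Rcor1 had its highest mean, at 109.1 ± 77.94 CPM (n = 7). The log2 fold change was −0.60 ± 0.26 (edgeR adjusted p = 0.0507), and 0.14 with library totals. Pooled microglia-like nuclei held 161.1 CPM (exact Poisson 95% interval 106.2 to 234.5), and the 10 endothelial-like nuclei held 335.0 CPM (162.3 to 581.8). Rest stood at 88.68 CPM in those endothelial-like nuclei, from 3 UMIs (18.29 to 259.2).

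**Figure D2:**
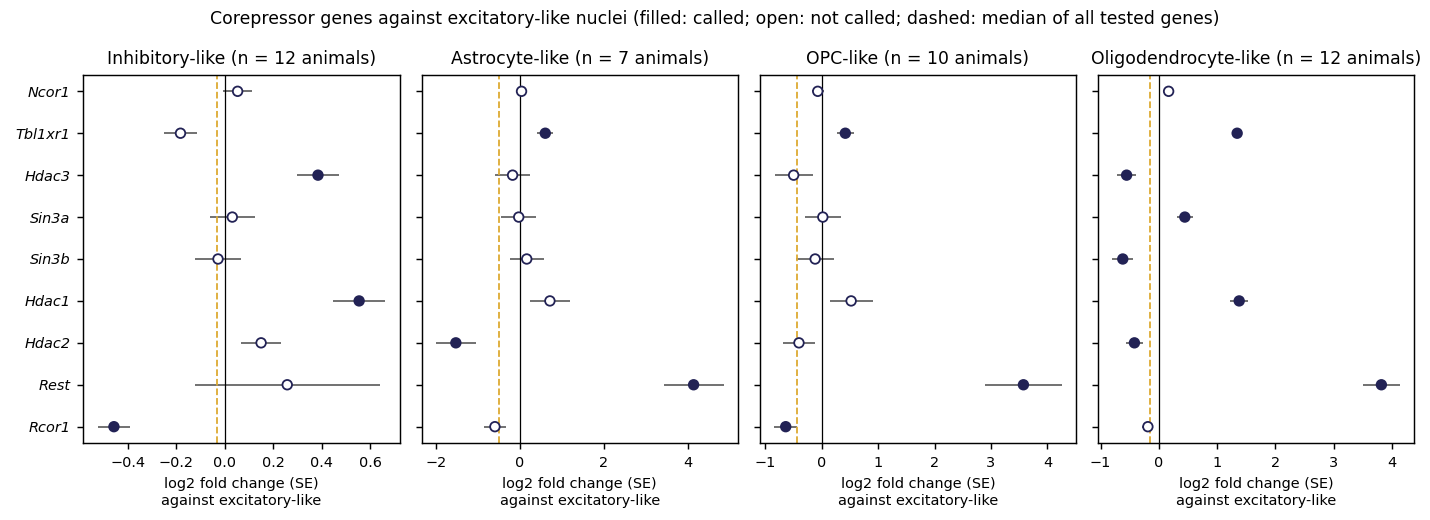
Log2 fold change of each gene (horizontal axis, bars give the SE) in 4 classes against excitatory-like nuclei, filled where called and open where not, with the median of all tested genes as a dashed line. Rest lies furthest to the right in the 3 glial classes, between 3.58 and 4.14, and Tbl1xr1 and Hdac1 lie near 1.34 and 1.38 in oligodendrocyte-like nuclei.

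In all, 16 of the 36 tests of members against excitatory-like nuclei were called, while 58.9% of the tests of all genes in the same 4 comparisons were. The calls were 10 higher and 6 lower, with library totals 16 higher and 1 lower, and without a filter on low counts 7 higher and 13 lower. Those of Rest in the 3 glial classes, Tbl1xr1 in oligodendrocyte-like nuclei, Hdac1 in oligodendrocyte-like and inhibitory-like nuclei, and Rcor1 and Hdac3 in inhibitory-like nuclei were called in each of the 8 alternative settings and in each of the 12 fits without an animal. When the 12 separate classes were put in order of mean level for each gene, only 2 steps between neighbors exceeded the larger SD of the pair. These were the 69.8 CPM step of Tbl1xr1 from OPC-like down to L6 CT-like nuclei, and the 14.62 CPM step of Rest from oligodendrocyte-like down to striatal projection-like nuclei.

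Among the 4 excitatory subclasses with enough nuclei to be tested, the mean of Rcor1 was highest in L2/3 IT-like and lowest in L5 NP-like nuclei. It was at 92.68 ± 13.24 CPM in L2/3 IT-like, 83.71 ± 23.11 in L4/5 IT-like, 67.62 ± 12.71 in L6 CT-like and 60.34 ± 14.71 in L5 NP-like nuclei (n = 12 each). Against the mean of the other subclasses it was 0.37 ± 0.09 higher in L2/3 IT-like nuclei (edgeR adjusted p = 0.000168), where 33.0% of 6873 genes were called. It was −0.44 ± 0.09 in L5 NP-like nuclei (edgeR adjusted p = 4.77e-05), where 31.9% of genes were called. With a stricter gate, which held 364 L2/3 IT-like and 683 L5 NP-like nuclei against 1591 and 1668, these were 0.11 and −0.29 and were not called. Tbl1xr1 was higher in L6 CT-like nuclei, at 116.0 ± 16.65 CPM, by 0.29 ± 0.07 (edgeR adjusted p = 0.000204), with 38.6% of genes called. No member was called in L4/5 IT-like nuclei, where 19.8% of genes were.

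Calls on the deacetylase and SIN3 genes among excitatory subclasses were less stable. Hdac3 was lower in L2/3 IT-like nuclei, at 23.36 ± 5.49 CPM, by −0.39 ± 0.14 (edgeR adjusted p = 0.0225). Sin3a was lower there, at 20.11 ± 6.01 CPM, by −0.35 ± 0.15 (edgeR adjusted p = 0.0468), and higher in L5 NP-like nuclei, at 29.68 ± 7.49 CPM, by 0.36 ± 0.13 (edgeR adjusted p = 0.0264). The L2/3 IT-like value of Sin3a was 0.002 without upper limits on UMIs and genes. Rest had too few UMIs in the subclasses to be tested, with means of 0.840 CPM or less in the excitatory ones.

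Among inhibitory subclasses only Ncor1, Tbl1xr1 and Rcor1 passed the filter on low counts. Tbl1xr1 was lower in striatal projection-like nuclei, at 73.36 ± 25.49 CPM, by −0.47 ± 0.17 (edgeR adjusted p = 0.0178), where 47.8% of 2866 genes were called. Vip-like nuclei (n = 10 animals) had higher Tbl1xr1, by 0.46 ± 0.19 (edgeR adjusted p = 0.0469), and higher Ncor1, by 0.28 ± 0.12 (edgeR adjusted p = 0.0488), with 35.3% of genes called. Both Vip-like calls were present in 3 of 8 alternative settings. None of the 3 genes was called in Pvalb-like, Sst-like or Lamp5-like nuclei, where 50.3%, 34.2% and 39.0% of genes were.

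The wider complexes were followed through 6 lists with 70 genes. They were compared first in oligodendrocyte-like against excitatory-like nuclei, where most genes of any kind were called. Of the SIN3 list, 8 genes rose and 5 fell of 14 tested, with a median log2 fold change of 0.362. Of the REST and CoREST list, 6 rose and 4 fell of 12 (median 0.171). Of the NuRD list 6 rose and 5 fell of 13 (median 0.21). The counts overlap, since the NuRD and SIN3 lists share Hdac1, Hdac2, Rbbp4 and Rbbp7. The REST and CoREST list also holds Hdac1 and Hdac2. Over all genes tested 2874 rose and 3731 fell, with the median of −0.149 given above, so both directions were common among all genes as well. With library totals 3594 rose and 3095 fell, and the list counts are those of the TMM scaling. By TMM in astrocyte-like nuclei, 0 rose and 4 fell of the SIN3 list (median −0.4). Of the REST and CoREST list 3 rose and 5 fell there (−0.574), and of the NuRD list 0 and 6 (−0.819). In OPC-like nuclei the counts in the same order were 0 and 5 (−0.4), 2 and 4 (−0.246), and 0 and 4 (−0.395). Over all genes 1290 rose and 2983 fell in astrocyte-like nuclei (−0.497), and 1367 and 3339 in OPC-like nuclei (−0.441).

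Examples from both directions in oligodendrocyte-like against excitatory-like nuclei were chosen after their values were seen. Hmg20b, a CoREST partner, was 2.77 higher on the log2 scale. Mta3, a NuRD subunit, was 1.88 higher, Arid4b, a SIN3 subunit, 1.37 higher and Gatad2a 1.28 higher. The CHD remodeler Chd5, which is known as a neuronal subunit of NuRD, was at −5.30, and Suds3 and Rbbp7 of the SIN3 complex were at −1.10 and −1.01. Zmym3 and Gse1, partners of CoREST, were at −1.48 and −1.07. All of these passed edgeR's test. Of the other histone deacetylases, 1 rose and 4 fell of 7 tested, with Hdac5 at 0.75, Hdac9 at −2.56 and Hdac4 and Hdac6 both at −2.87.

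Known REST target genes fell in the glial classes in which Rest was higher. Of the 15 on the list, 11 had enough counts to be tested, mostly through the neurons, so the counts are a description. In oligodendrocyte-like nuclei 11 of the 11 were called lower, with a median of −4.31. They included Grin1, a subunit of the NMDA receptor, at −6.23, Stmn2, a tubulin-binding protein of growing axons, at −5.62, and Gria2, a subunit of the AMPA receptor, at −2.58. Snap25, at −5.50, was also among the genes used to choose the cutoffs of the classes. In astrocyte-like nuclei 11 were called lower (median −4.02), where 2983 of all 8581 genes were, and in OPC-like nuclei 10 (median −2.86), where 3339 genes were. With library totals 1430 and 1803 of all genes were lower in these classes. In inhibitory-like nuclei, where Rest was not called, 8 were lower and 2 higher (median −0.439), and 2561 of all genes were lower and 2071 higher, against 1941 and 2709 with library totals. These genes are neuronal by expression, and the glial classes had been required to hold no UMI of the neuronal markers. Whether Rest bears on their level was not tested.

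**Figure D3:**
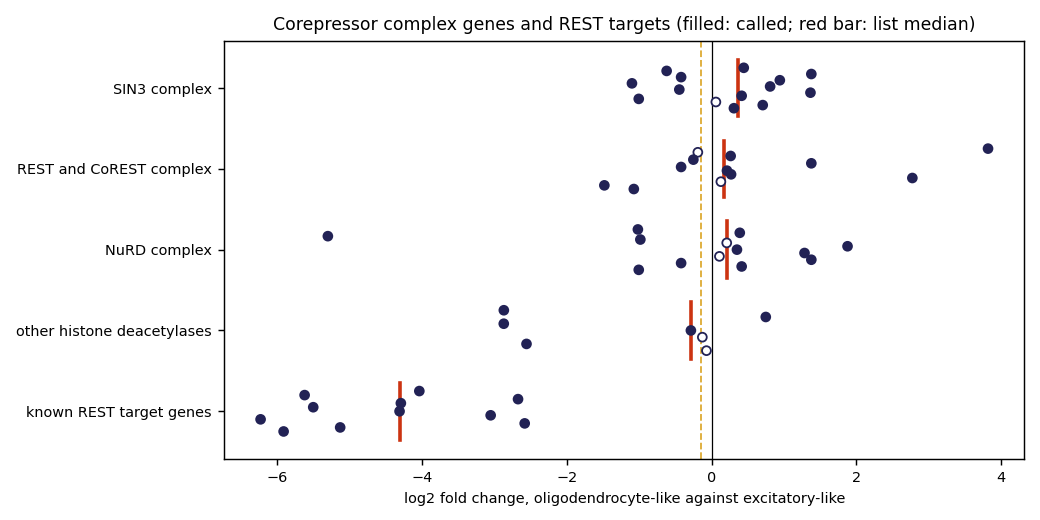
Log2 fold change of each tested gene of 5 lists (rows) in oligodendrocyte-like against excitatory-like nuclei, filled where called, with a red bar at the median of each list and a dashed line at the median of all tested genes. The 3 complexes scatter to both sides with medians from 0.171 to 0.362, and the REST targets lie between −6.23 and −2.58.

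The comparison of Het with WT mice asked whether loss of 1 intact copy of Myt1l changed these genes. Across 14 groups of nuclei, which were all nuclei together and the classes with enough animals, 69 tests of members were made and 0 were called by edgeR. An unadjusted p under 0.05 was reached in 9 of these 69 tests. That is a larger share than the 5127 of 79145 tests (6.48%) over all genes in the same groups. Of the 69 fold changes 35 were positive. The groups share nuclei, so these tests are not independent. DESeq2 also called 0, with 6 at an unadjusted p under 0.05. The smallest adjusted p in edgeR was 0.398. Over all genes the background was 0.158% called in excitatory-like nuclei, 0.217% in L4/5 IT-like and 0.52% in L6 CT-like nuclei. In the 11 other groups 0 of 53219 tests were called (0.0%), with 2924 at an unadjusted p under 0.05.

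Of the 9 values with an unadjusted p under 0.05, most were those of Rcor1 and Hdac2. For Rcor1 over all nuclei, the WT mice had 60.82 CPM as the lowest, 72.6 as the median and 77.32 as the highest value. The Het mice had 78.3, 78.97 and 85.64 CPM of Rcor1. Every Het mouse was above every WT mouse, with means of 80.53 ± 2.94 and 71.26 ± 5.56 CPM. This was a log2 fold change of 0.15 ± 0.06 (edgeR adjusted p = 0.801). Groups that do not overlap occurred for 0.486% of the 16669 genes in this comparison. In a sum over all nuclei, a different mix of cell types and a different level in each cell cannot be told apart. The lowest and highest values from leaving out 1 animal were 0.10, without WT male replicate 2, and 0.19.

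Within excitatory-like nuclei, Rcor1 was at 57.4, 73.66 and 82.97 CPM in WT (lowest, median, highest) and at 79.51, 84.51 and 86.79 CPM in Het mice. There 5 of 6 Het mice were above the highest WT mouse. The log2 fold change was 0.20 ± 0.08 (edgeR adjusted p = 0.431). The L4/5 IT-like means were 69.57 ± 14.61 and 97.85 ± 21.95 CPM, a log2 fold change of 0.41 ± 0.16 (edgeR adjusted p = 0.398). In L6 CT-like nuclei they were 59.54 ± 8.41 and 75.7 ± 11.33 CPM, 0.30 ± 0.13 (edgeR adjusted p = 0.419). These subclass values depended on the choice of nuclei. With a stricter gate, which held 588 L4/5 IT-like and 1010 L6 CT-like nuclei against 1670 and 2727, they were −0.011 and −0.028. Without upper limits on UMIs and genes the L4/5 IT-like value was 0.22, and the L6 CT-like value was 0.49 (edgeR adjusted p = 0.0159, the lowest among its alternatives), which was called. That setting held 7122 L6 CT-like nuclei, against 2727 in the main fit.

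Hdac2 had values of the opposite sign. Over all nuclei it ran from 39.93 through a median of 45.13 to 50.76 CPM in WT and from 37.58 through 41.08 to 42.5 CPM in Het mice. The groups overlapped, with 0 of 6 Het mice above the WT median, and the log2 fold change was −0.17 ± 0.06 (edgeR adjusted p = 0.695). In inhibitory-like nuclei the means were 53.65 ± 11.31 CPM in WT and 42.78 ± 6.82 CPM in Het mice, −0.36 ± 0.14 (edgeR adjusted p = 0.912). In L4/5 IT-like nuclei they were 47.25 ± 8.11 and 34.49 ± 6.82 CPM, −0.46 ± 0.19 (edgeR adjusted p = 0.477). Without upper limits on UMIs and genes the 3 values shrank to −0.10, −0.14 and −0.12.

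**Figure D4:**
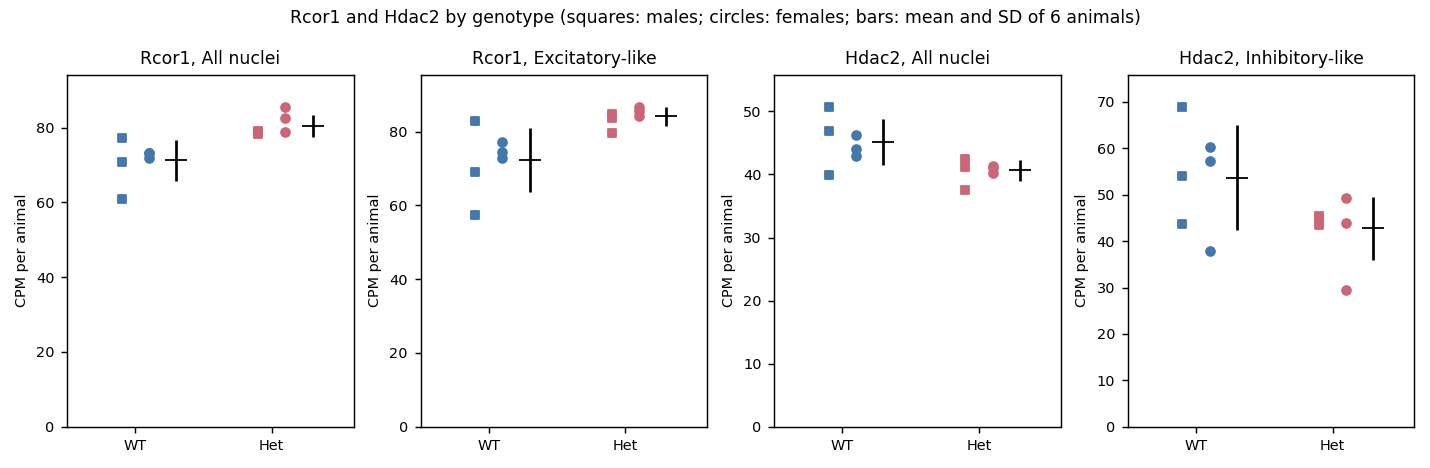
Levels of Rcor1 and Hdac2 in each animal (vertical axes, CPM), WT in blue and Het in red, males as squares and females as circles, with mean and SD of 6 animals beside them. For Rcor1 over all nuclei the Het mice, from 78.3 CPM, sit above the WT mice, up to 77.32 CPM, and the genotypes overlap in the other 3 panels.

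Of the remaining members, Ncor1 in OPC-like nuclei averaged 547.8 ± 50.13 CPM over 4 WT mice and 376.2 ± 52.73 CPM over 6 Het mice. The groups did not overlap, as for 1.17% of 1108 genes there, and the log2 fold change was −0.50 ± 0.21 (edgeR adjusted p = 0.624). Over all nuclei Ncor1 differed by −0.003 ± 0.052. The mean of Sin3a over WT mice in L6 CT-like nuclei was 20.35 ± 5.76 CPM, against 27.78 ± 3.33 CPM over Het mice, 0.44 ± 0.20 (edgeR adjusted p = 0.426), and the difference was 0.25 without upper limits. Rest over all nuclei was at 3.13 ± 1.90 CPM in WT and 3.07 ± 1.35 CPM in Het mice, 0.04 ± 0.35 on the log2 scale. In oligodendrocyte-like nuclei, where its level was tested alone, Rest was at 15.47 ± 13.16 and 19.34 ± 6.22 CPM (exact permutation test, two-sided p = 0.533, n = 6 each).

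**Figure D5:**
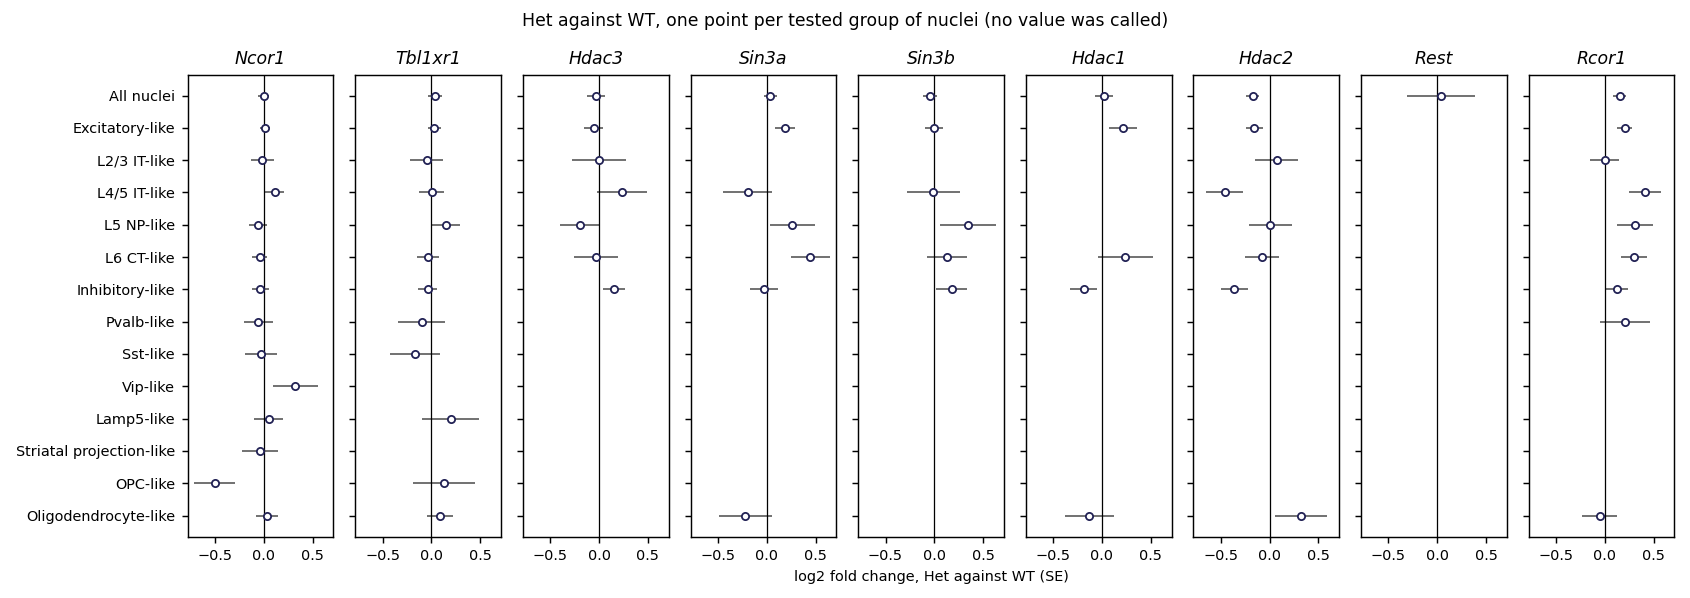
Log2 fold change of Het against WT (horizontal axes, bars give the SE) for each gene in each group of nuclei in which it was tested. None of the 69 values was called, and Rcor1 at 0.15 and Hdac2 at −0.17 over all nuclei lie on opposite sides of 0.

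Myt1l had been planned as a check of the targeted gene, and its level was not lower in Het mice over all nuclei. The allele is a frameshift and not a deletion of the gene. The RNA of the mutant allele was not measured apart from that of the intact allele, so the level gave no check of genotype. Myt1l was at 882.8 ± 46.19 CPM in WT and 985.7 ± 30.41 CPM in Het mice over all nuclei. The log2 fold change was 0.14 ± 0.05 (edgeR unadjusted p = 0.0135, adjusted p = 0.694), and it was not called in any group. The lowest unadjusted p was in L6 CT-like nuclei, at 0.188 ± 0.065 (edgeR unadjusted p = 0.00622, adjusted p = 0.232). Values below 0 were −0.001 in L4/5 IT-like and −0.072 in Sst-like nuclei. The wider lists gave the same count as the members. Of 548 tests of list genes between genotypes, the 69 tests of members among them, 0 were called by edgeR. An unadjusted p under 0.05 was found in 50 of the 548, against 6.48% of the tests of all genes. The smallest adjusted p, 0.121, was that of Gse1 in excitatory-like nuclei, at 0.29 ± 0.07, which DESeq2 called.

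The model with genotype, sex and their interaction gave 0 calls among 78 tests of members by edgeR, with 4 at an unadjusted p under 0.05 and 0 by DESeq2. The background over all genes and groups was 0.0124%. Shares of the classes among nuclei did not pass adjustment. The lowest p was for striatal projection-like nuclei, whose share averaged 0.901% ± 0.375 over WT mice and 1.61% ± 0.341 over Het mice (exact permutation p = 0.0173, adjusted 0.243, n = 6 each).

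The genes most alike to each member in mean log2(CPM + 1) over 11 classes are given as a description, with Pearson's r, of 11549 genes. The classes come from the same libraries and differ in depth. Each value is among the highest of 11549 genes over only 11 class means, and the r that chance alone would give was not determined. For Tbl1xr1 these were Slc26a11 (0.994) and Dusp15 (0.973), for Rest Fa2h (0.98) and Plxnb3 (0.979), and for Hdac1 Rab33b (0.98) and Zfp280c (0.96). Fa2h makes hydroxylated fatty acids of myelin. For Ncor1 they were Sept10 (0.948) and Col11a2 (0.933), for Hdac3 Itsn1 (0.957) and Msantd2 (0.946), and for Hdac2 Amer2 (0.955) and Tdp1 (0.9). For Sin3a they were Dido1 (0.956) and Gm37521 (0.954), for Sin3b Ifnar2 (0.923) and Wdr1 (0.921), and for Rcor1 Strn4 (0.941) and Ift52 (0.94). Among the members themselves Tbl1xr1 was most alike to Rest (0.87), Hdac1 (0.866) and Ncor1 (0.841).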

How the data were processed

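Nuclei of 12 mouse cortices were profiled with the ScaleBio kit, and per the labels the reads were aligned to mm10. The matrices deposited by the authors hold estimated counts of UMIs per gene and nucleus, which the ScaleBio workflow assigned from aligned reads, with 92.6% of entries whole and the rest fractions of reads that fit several genes. The study used DESeq2 1.38.3 and Seurat 4.3.0 and states more nuclei for this age than the barcodes in the matrices used here.

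Nuclei were kept under the limits of the study, 34861 of 78743, and the 5% with the highest Scrublet score in each animal (scanpy 1.11.5) were removed, 1736 in all. Median UMIs per nucleus were 2975 to 3399 per animal. Classes were set from marker UMIs per nucleus, with cutoffs chosen on marker levels and on held-out neuronal genes, before genotypes were compared. The vector row was left out of library sizes. Summed counts per animal and class were rounded and tested over all genes with edgeR 4.0.16 (TMM, filterByExpr, robust quasi-likelihood) in R 4.3.3, with genotype as the only term, for classes with at least 10 nuclei in at least 3 animals per genotype. Classes were compared with the animal as a block. P-values were adjusted by Benjamini-Hochberg within each fit, and the fits were tested on simulated data. DESeq2 1.42.0, other scalings, filters, gates and leaving out each animal were tried as alternatives. Intervals cover counting error only. Gene positions are from GENCODE M21 (GRCm38) and promoters from RefSeq.

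The members and gene lists were chosen with earlier results of these data known. The text names the 9 members, Myt1l, list genes called between genotypes and the 2 genes most alike to each member (mean of at least 10 CPM in some class), and genes outside this rule are named as chosen after their values were seen. The counts of the NCoR list between classes are not reported here.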

Additional observations from a re-analysis of the deposited data

Results flagged for a closer look

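Dixon's test over groups of 6 animals found 4 values, from 3 animals, that stood apart from the rest of their group, in 72 groups tested (5.56%), and chance gives about 1 in 20. Hdac3 over all nuclei was at 39.77 CPM in Het male replicate 2, with the other Het mice from 29.02 to 32.69 CPM. Hdac3 in inhibitory-like nuclei was at 46.79 CPM in WT male replicate 1, with the other WT mice from 36.6 to 40.09 CPM. Sin3b in oligodendrocyte-like nuclei was at 61.11 CPM in WT male replicate 1, from 3 UMIs in 22 nuclei, with the others from 9.72 to 26.79 CPM. Hdac2 in inhibitory-like nuclei was at 29.54 CPM in Het female replicate 3, from 55 UMIs, with the other Het mice from 43.37 to 49.39 CPM.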

How the results depend on the processing

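Between genotypes, 0 members were called in all nuclei under any setting. By cell class 1 was called without upper limits on UMIs and genes, which was Rcor1 in L6 CT-like nuclei. That setting also lifted the floor on genes relative to UMIs. Of the list genes, 1 was called by DESeq2, 1 without upper limits and 1 when low counts were not filtered. The values of Rcor1 turned to −0.011 in L4/5 IT-like and −0.028 in L6 CT-like nuclei with a stricter gate, which held fewer nuclei. The 16 calls between broad classes were 15 to 17 when 1 animal was left out, and 16 to 21 under other settings. Tbl1xr1 in OPC-like nuclei reversed with no filter, to −0.02. The 9 calls between neuronal subclasses were 17 without upper limits, 5 without doublet removal, 2 with a stricter gate, 6 by DESeq2 and 5 to 9 when 1 animal was left out, the 5 without WT female replicate 3. The stricter gate left only 4 members to be tested among excitatory and 2 among inhibitory subclasses. Sin3a in L2/3 IT-like nuclei reversed without upper limits, to 0.002. The cause of these changes was not tested. Single values between genotypes were followed for 9 results, none of them called in the main fit. When 1 animal was left out, 108 of 108 kept their side of the threshold and their direction, which here means that they stayed uncalled. Under other settings 85 of 88 did. Between classes the numbers were 250 of 300 and 157 of 197.

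Replicate numbers did not pair the samples, since the deviations of same-numbered animals correlated from −0.527 to 0.059 over 6 pairs and none matched best with its own number. With the replicate block 0 members and 0 list genes were called. The 12 libraries were distinct, with a chi-square per degree of freedom between animals of a group from 3.02 to 13.36. Depth limits Rest, with 317.1 UMIs, and the astrocyte-like, OPC-like and microglia-like values.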
